A study of Rattus norvegicus with 17 samples.

Results

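The neurofilament genes Nefl, Nefm, Nefh and Ina were examined in rat spinal cord neurons that did or did not regenerate an axon. Probe sets were taken when the annotation gave them a single gene symbol and that symbol was 1 of these 4 genes. This gave 6 of the 31099 probe sets of the array, and 4 of the 14218 genes that it named. Nefl was read by probe sets 1370058_at and 1370059_at, Nefm by 1367845_at, Nefh by 1370815_at, and Ina by 1387226_at and 1371148_s_at. The suffix of the last one marks a design that can match more than 1 transcript. All 6 were bright enough to be tested.

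The study compared 3 groups of laser captured, retrogradely labelled neurons, with 1000 neurons pooled per sample and 1 array per sample. Regenerating neurons (7 arrays) and Non-regenerating neurons (7 arrays) were both axotomised. Each of 7 rats gave both kinds, 2 of them with the names MOON265 and MOON266 and 5 with the prefix MM (MM11, MM13, MM14, MM16 and MM17). Traced neurons (3 arrays) were labelled without axotomy and came from 3 other rats, MM15, MM18 and MM19. The strain, sex and age of the rats, the lesion, the spinal level and the time after it are not given in the sources used here.

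Neurofilaments are the intermediate filaments of neurons and fill the shaft of large axons. Nefl encodes the light chain, the core subunit on which assembly depends. Nefm and Nefh encode the medium and heavy chains, whose long phosphorylated tails project from the filament and set the spacing between filaments and the calibre of the axon. Ina encodes alpha-internexin, a subunit that joins neurofilaments in the central nervous system and appears early in neuronal development. Neurofilament messages are known to fall in motor and sensory neurons after a peripheral nerve is cut, while the related filament gene Prph is known to rise. In the RefSeq annotation of the rat assembly GRCr8, Nefl and Nefm lie on chromosome 15 with 0 protein-coding genes starting between them, Nefh on chromosome 14 and Ina on chromosome 1.

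None of the neurofilament probe sets passed the test in any of the 3 comparisons. Nefl, Nefm and Nefh gave signals of 1629 or more on all 17 arrays, axotomised neurons included, and the values of the groups overlapped for every probe set. All levels below are signals in arbitrary units that the authors had scaled to nearly the same mean on every array. At 1 probe set they share this scale between arrays, but they cannot be compared between probe sets. The scaling did not make the array medians equal. These were 32.8 to 60.6 in Regenerating, 33.9 to 76.9 in Non-regenerating and 63.7 to 76.0 in Traced samples, so counts of arrays below the Traced ones depend on the scaling. Since a sample is a pool of captured tissue, fewer cells of a type and less RNA per cell cannot be told apart.

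The light chain gene Nefl had a signal of 2374 to 4955 at 1370058_at in Regenerating neurons, with a median of 3462. In Non-regenerating neurons the same probe set gave 1629 to 4723, with a median of 3896. The Traced arrays gave 5032 in MM15, 3080 in MM18 and 2760 in MM19. The lowest value of all came from Non-regenerating MM16 and the highest from Traced MM15, and 1 array of each axotomised group lay below all Traced arrays. The means were 3467 ± 876 in Regenerating neurons, 3621 ± 969 in Non-regenerating and 3624 ± 1230 in Traced neurons (SD, n = 7, 7 and 3).

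The other Nefl probe set, 1370059_at, gave a narrower Traced group. Its signal was 1966 to 4550 in Regenerating neurons (median 3142) and 1821 to 3597 in Non-regenerating neurons (median 3517). The Traced values were 3192, 3579 and 3171 in MM15, MM18 and MM19. Of the Regenerating arrays 5 of 7 lay below all Traced arrays and 1 above, and of the Non-regenerating arrays 3 lay below and 2 above.

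Nefm, the medium chain gene, had a signal of 2760 to 4932 in Regenerating neurons (median 3693) and of 2398 to 4519 in Non-regenerating neurons (median 3583). The Traced values were 4219, 4079 and 3675 in MM15, MM18 and MM19. Of the Regenerating arrays 3 lay below and 3 above all Traced arrays, and of the Non-regenerating arrays 4 lay below and 2 above. The axotomised neurons thus lay on both sides of a narrow Traced group.

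The heavy chain gene Nefh had a signal of 3039 to 5291 in Regenerating neurons, with a median of 4375. In Non-regenerating neurons it was 2718 to 9636, with a median of 5063. The Traced values were 8637 in MM15, 3920 in MM18 and 3324 in MM19. Non-regenerating MM17 and Traced MM15 held the 2 highest values of the 17 arrays. The means were 4283 ± 844 in Regenerating neurons, 5584 ± 2151 in Non-regenerating and 5294 ± 2911 in Traced neurons.

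**Figure D1:**
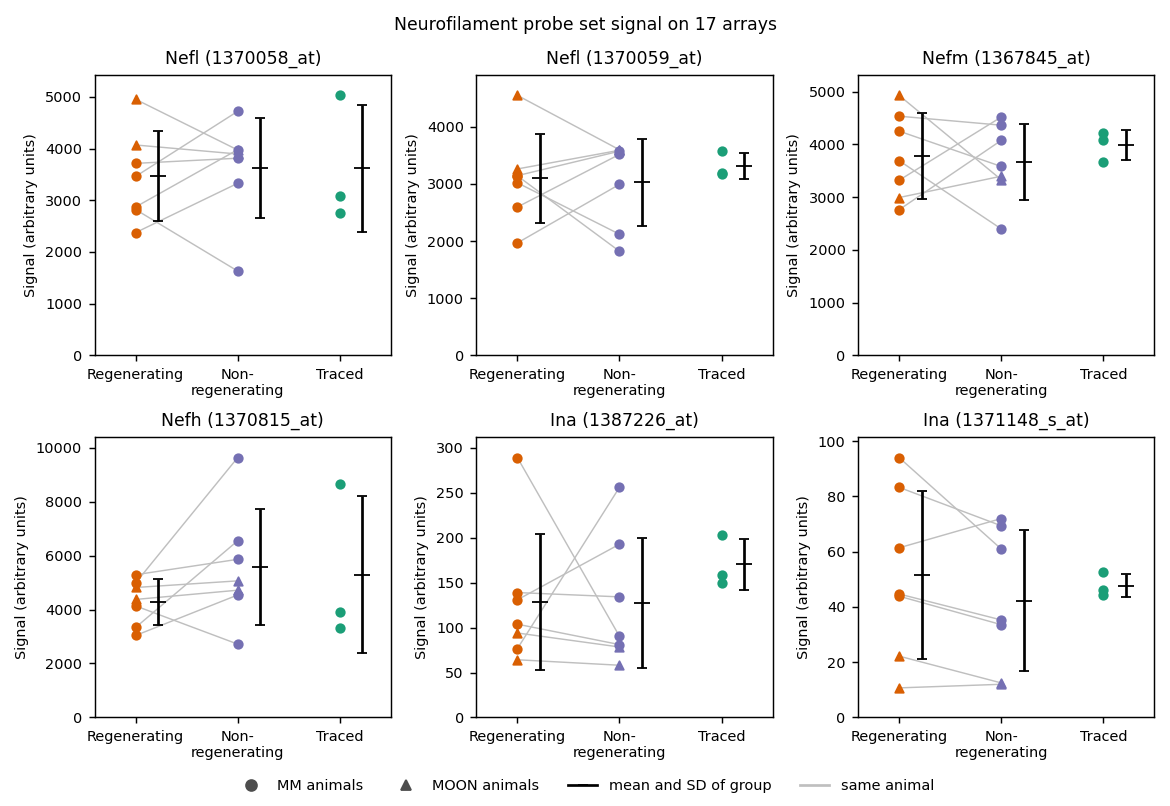
Signal in arbitrary units (y axis, from 0) of each neurofilament probe set on the 17 arrays, by group. Circles are MM animals, triangles MOON animals, grey lines join the arrays of 1 animal, and the bars show the mean and SD. For Nefh the Non-regenerating array at 9636 and the Traced array at 8637 stand above the rest, and for every probe set the groups overlap.

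Among the axotomised arrays Ina spread more widely relative to its mean than the 3 chains, and among the Traced arrays less widely than Nefl at 1370058_at and Nefh. At 1387226_at its signal was 64.2 to 289.3 in Regenerating neurons (median 103.8) and 58.1 to 256.1 in Non-regenerating neurons (median 90.3). The Traced arrays gave 202.7 in MM15, 158.5 in MM18 and 149.8 in MM19. Most axotomised arrays lay below all Traced arrays, 6 of 7 in Regenerating and 5 of 7 in Non-regenerating neurons, with 1 array above in each group. The means were 128 ± 76.0 in Regenerating neurons, 127 ± 72.6 in Non-regenerating and 170 ± 28.4 in Traced neurons.

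The second Ina probe set, 1371148_s_at, gave 10.7 to 94.1 in Regenerating neurons (median 44.7) and 12.0 to 72.0 in Non-regenerating neurons (median 35.3). The Traced values were 44.3, 52.5 and 46.3 in MM15, MM18 and MM19. At this probe set 3 of 7 Regenerating arrays lay below and 3 above all Traced arrays, and 4 of 7 Non-regenerating arrays lay below and 3 above. Fewer axotomised arrays thus lay below all Traced arrays here than at 1387226_at. No difference of Ina from Traced neurons passed the test at either probe set. Such counts of arrays were not made over all probe sets.

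The first comparison was made within animals and asked which genes go with regeneration. It found 0 of the 6 neurofilament probe sets past the threshold, an adjusted p under 0.05 from limma. Over all 18625 probe sets tested, 3 passed (0.0161%). Nor did any neurofilament probe set have an unadjusted p under 0.05, against 1318 probe sets (7.08%) over all. The median difference over all probe sets was near 0 (-0.00).

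In log2(signal + 16), Regenerating minus Non-regenerating, Nefl differed by -0.04 (SE 0.16) at 1370058_at, with limma's adjusted p = 0.97. The 95% interval of this difference was -0.38 to 0.30, or a ratio of 0.77 to 1.23. Nefl was higher in Regenerating neurons in 3 of 7 animals. The other Nefl probe set differed by 0.04 (SE 0.17), also with 3 of 7 animals higher. Nefm differed by 0.04 (SE 0.16, interval -0.30 to 0.38), with 4 of 7 animals higher. These values do not show that the groups were equal, since differences of up to the bounds of the intervals remain possible.

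Nefh gave the largest of the 6 differences in this comparison, -0.32 (SE 0.18), a ratio of 0.80 with a 95% interval of 0.62 to 1.04. It did not pass the test (limma adjusted p = 0.71). In 6 of 7 animals Nefh was lower in Regenerating neurons, with MM16 as the exception. In MM17 the Regenerating array gave 4989 and the Non-regenerating array 9636. In MM14 they gave 3336 and 6553. In MM16 they gave 4134 and 2718. After quantile normalization, which gives all arrays the same spread of signals, the difference was -0.03 and Nefh was higher in Regenerating neurons in 5 of 7 animals. Most of these differences were then near 0, at 0.01 to 0.04 in MM11, MM13, MM14 and MM17. It was 0.16 in MM16, and -0.28 and -0.20 in MOON265 and MOON266.

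Ina differed by 0.02 (SE 0.26) at 1387226_at and by 0.20 (SE 0.16) at 1371148_s_at, with 5 of 7 animals higher at both. The first value hides large and opposite differences between animals. In MM14 the Regenerating array gave 289.3 and the Non-regenerating array 90.3. In MM17 the order was the opposite, with 76.5 in Regenerating and 256.1 in Non-regenerating neurons. The 95% interval was -0.52 to 0.56, the widest of the 6.

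Of 7 tested motor neuron markers 6 were higher in Regenerating neurons and 1, Calca, passed the test, beside 0.0161% of all probe sets. In the other 6 cell type lists 0 markers passed in this comparison. The summed signal of 7 measured motor neuron markers of 8 fixed, all above the filter on dim probe sets, reached 1273 to 5579 in Regenerating neurons, against 713 to 1567 in Non-regenerating and 921 to 1254 in Traced neurons. The sum of 8 general neuron markers spanned 11035 to 19504 in Regenerating neurons, 10824 to 34397 in Non-regenerating and 13764 to 35562 in Traced neurons, with overlap and 0 of 8 markers called. The part of either in the neurofilament values was not tested.

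The comparison of Non-regenerating with Traced neurons, made between animals, is the study's question of what axotomy changes. It found 0 of 6 neurofilament probe sets past the adjusted threshold and 0 with an unadjusted p under 0.05. Over all probe sets tested 8 passed (0.043%), and 1916 had an unadjusted p under 0.05 (10.3%). With 3 Traced arrays the precision was lower than within animals, and the median SE over all probe sets was 0.32 here against 0.17 there. The median difference over all probe sets was -0.12, and it was 0.24 when every array was centred on its own median.

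Nefl differed by -0.01 (SE 0.31) at 1370058_at and by -0.17 (SE 0.26) at 1370059_at in Non-regenerating minus Traced neurons. Nefm differed by -0.15 (SE 0.23) and Nefh by 0.12 (SE 0.36). The differences of Nefl and Nefm lay close to the median of all probe sets, and their signs turned to positive when arrays were centred on the median. That of Nefh lay above the median of all probe sets, and after centring it was 0.48, beside 0.24 over all probe sets. The intervals were wide, and that of Nefh was -0.66 to 0.90. Leaving out Traced MM15, the difference of Nefh was 0.54. Leaving out Non-regenerating MM17, it was -0.03.

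Ina showed the largest difference, -0.51 (SE 0.38) at 1387226_at, a ratio of 0.70 with a 95% interval of 0.40 to 1.23. It did not pass the test (limma adjusted p = 0.58). Without Non-regenerating MM17 it was -0.69 (limma unadjusted p = 0.048, adjusted p = 0.20), and in MM animals alone -0.26. At 1371148_s_at the difference was -0.26 (SE 0.39) over all animals, but 0.10 in MM animals alone.

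Regenerating and Traced neurons were also compared, which completes the 3 groups and shares arrays with the other comparisons. The limma test gave 0 of 6 neurofilament probe sets past the adjusted threshold and 0 with an unadjusted p under 0.05. Over all probe sets tested 40 passed (0.215%), and 4387 had an unadjusted p under 0.05 (23.6%). The differences were -0.05 (SE 0.26) and -0.13 (SE 0.23) for the Nefl probe sets, -0.10 (SE 0.22) for Nefm and -0.20 (SE 0.28) for Nefh, beside -0.12 for the median of all probe sets, which was 0.26 after centring on array medians. Ina differed by -0.49 (SE 0.35, interval -1.25 to 0.27) at 1387226_at and by -0.06 (SE 0.39) at 1371148_s_at. In MM animals alone these differences were -0.30 and 0.31. The difference of Nefh was 0.22 without Traced MM15.

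Markers of microglia and astrocytes were higher in sum in both axotomised groups than in the Traced samples. The sum of 8 measured markers of microglia and macrophages, 6 of them above the filter, spanned 2682 to 5578 in Regenerating samples, 2785 to 4721 in Non-regenerating and 1700 to 1842 in Traced samples. Of the 6 tested, 3 passed in Regenerating (0.215% of all probe sets) and 1 in Non-regenerating against Traced samples (0.043%). The sum of 6 astrocyte markers spanned 8329 to 13344 in Regenerating samples, 8304 to 13174 in Non-regenerating and 6627 to 7566 in Traced samples, with 1 of 6 passing in Regenerating and 0 of 6 in Non-regenerating against Traced samples. Of 5 oligodendrocyte markers 0 passed, and their sums overlapped, with medians of 8865 in Regenerating, 8359 in Non-regenerating and 8795 in Traced samples. Of 3 tested sensory ganglion neuron markers 0 passed. Their sums were 112.4 to 327.2 in Regenerating and 98.5 to 428.3 in Non-regenerating samples, against 411.2 to 456.5 in Traced samples. The part of these cells in the neurofilament differences was not tested.

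**Figure D2:**
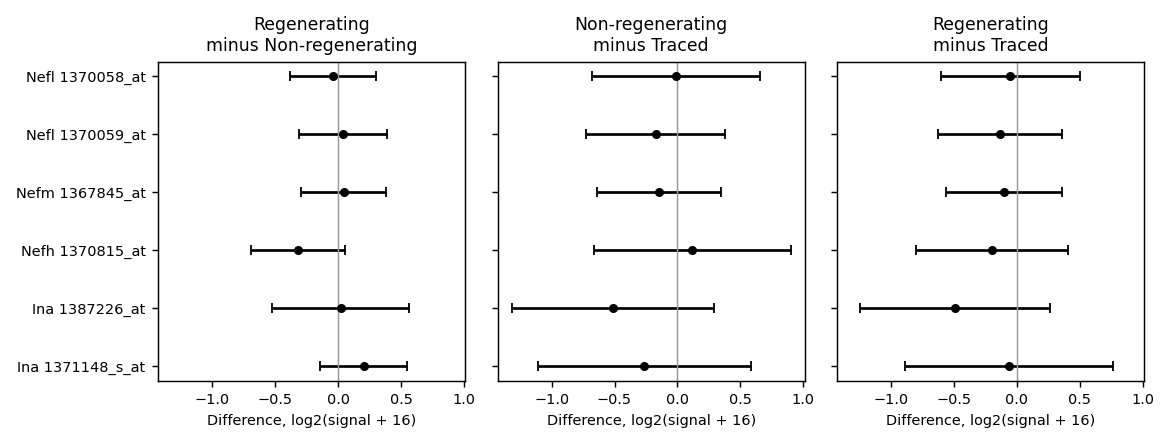
Difference in log2(signal + 16) (x axis) of each neurofilament probe set in the 3 comparisons, as the first group named minus the second. Points are limma's estimates and bars their 95% intervals. Every interval spans 0, with Nefh at -0.32 in the comparison within animals and Ina 1387226_at at -0.51 and -0.49 against Traced neurons.

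Non-regenerating MM17 and Traced MM15 (titled a high yield replicate) stood apart from the other 15 arrays. The 100 brightest probe sets took up 12.4% of all signal on MM17 and 11.8% on MM15, where no other array exceeded 7.32%. Their Gapdh control probe sets gave the smallest ratios of 3 prime to 5 prime signal, 2.94 and 3.21 in log2, against 4.08 to 6.01 elsewhere. The Nefl probe sets parted on the same arrays: 1370058_at exceeded 1370059_at by 1.37 in MM17 and by 0.65 in MM15, in log2(signal + 16). On the other 15 arrays this difference was -0.38 to 0.32. In Non-regenerating MM17 the signal was 4723 at 1370058_at, the highest of its group, and 1821 at 1370059_at, the lowest of its group.

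**Figure D3:**
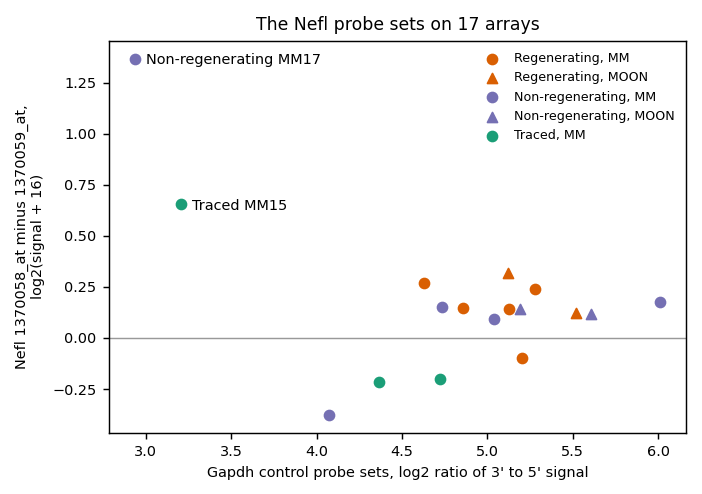
Difference between the Nefl probe sets, 1370058_at minus 1370059_at in log2(signal + 16) (y axis), against the log2 ratio of 3 prime to 5 prime signal of the Gapdh control probe sets (x axis) on 17 arrays. Non-regenerating MM17 at 1.37 and Traced MM15 at 0.65 lie above the other 15 arrays, which span -0.38 to 0.32, and have the lowest Gapdh ratios.

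The animal names have the prefixes MM and MOON, whose meaning is not given in the sources used here. Within the 5 MM animals the mean difference of Regenerating minus Non-regenerating neurons was -0.13 for Nefl 1370058_at, -0.02 for Nefm, -0.41 for Nefh and -0.04 for Ina 1387226_at. Within the 2 MOON animals it was 0.19 for Nefl, 0.19 for Nefm, -0.09 for Nefh and 0.17 for Ina. The mean of Nefh was thus below 0 in both sets as deposited, by a larger amount in the MM animals, although MM16 gave 0.60. After quantile normalization Nefh was 0.01 to 0.16 in the MM animals and -0.28 and -0.20 in the MOON animals. This contrast between prefixes was not tested.

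The level of Ina at 1371148_s_at separated the prefixes. It was 10.7 to 22.2 on the 4 MOON arrays and 33.6 to 94.1 on the 10 axotomised MM arrays, so that the sets did not overlap. The MOON values of 10.7, 12.0 and 12.5 lay below 16, the 25th percentile of all signals, and are near the floor. The MOON arrays also had the lowest array medians, 32.8 to 39.0. Of all probe sets tested, 2712 lay wholly lower on the MOON arrays (14.6%), so this separation was common across the array. At Ina 1387226_at the MOON arrays gave 58.1 to 94.0 and the MM arrays 76.5 to 289.3, with overlap. At Nefl 1370058_at they gave 3896 to 4955 on the MOON arrays and 1629 to 4723 on the MM arrays. All Traced animals were MM animals, so each difference from Traced neurons holds the MOON arrays on the axotomised side alone.

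Within animals the size and sign of the differences varied. Those of Nefl at 1370058_at and of Nefh varied together, and at 1370059_at no such relation passed the test. The log2 difference of Nefl (1370058_at), Regenerating minus Non-regenerating, was -0.49 in MM11, -0.04 in MM13, -0.47 in MM14, 0.79 in MM16, -0.45 in MM17, 0.32 in MOON265 and 0.06 in MOON266. That of Nefh, in the same order of animals, was -0.58, -0.15, -0.97, 0.60, -0.95, -0.07 and -0.11. That of Nefm was -0.56, 0.06, -0.44, 0.62, 0.25, 0.56 and -0.18. MM16 was the animal with the highest value for all 3 chains, and MM11 the one with the lowest for Nefl and Nefm.

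Nefl at 1370059_at differed by -0.60, -0.18, -0.44, 0.51, 0.78, 0.34 and -0.14 in the same order, and parted from 1370058_at most in MM17.

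Over the 7 animals the differences of Nefl at 1370058_at and of Nefh had a Pearson r of 0.95 in a two-sided exact permutation test (p = 0.0022, adjusted p = 0.013 over the 6 pairs of genes). Spearman's rho was 0.89 (exact permutation p = 0.012, adjusted p = 0.071). Without MM11 and MM16, the 2 animals farthest from the median of Nefl, r was 0.94 over 5 animals. At 1370059_at r with Nefh was 0.26 (exact permutation p = 0.58, adjusted p = 0.70), so the relation differed between the Nefl probe sets. These parted most in MM17, at -0.45 for 1370058_at and 0.78 for 1370059_at, where Nefh was -0.95. The part of MM17 in the lower r was not tested. For Nefl at 1370058_at and Nefm r was 0.78 (exact permutation p = 0.040, adjusted p = 0.12), rho was 0.86 (exact permutation p = 0.024, adjusted p = 0.071), and r was 0.55 without the same animals. At 1370059_at r with Nefm was 0.86 (exact permutation p = 0.019, adjusted p = 0.11). For Nefm and Nefh r was 0.62 (exact permutation p = 0.14, adjusted p = 0.28). In the 5 MM animals alone r was 0.96 for Nefl at 1370058_at and Nefh (exact permutation p = 0.042, adjusted p = 0.25), 0.79 for Nefl and Nefm and 0.66 for Nefm and Nefh. The 2 MOON animals are too few for an r of their own.

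For Ina no such relation passed the test. Its difference was 0.05 in MM11, 0.30 in MM13, 1.52 in MM14, -0.51 in MM16, -1.56 in MM17, 0.22 in MOON265 and 0.11 in MOON266. Its r was -0.14 with Nefl at 1370058_at, -0.50 with Nefm and -0.12 with Nefh, with exact permutation p-values of 0.78, 0.27 and 0.83. With Nefl at 1370059_at it was -0.76 (exact permutation p = 0.035, adjusted p = 0.11). The difference between these r and those among the 3 chains was not tested.

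The relation of Nefl at 1370058_at with Nefh did not hold after quantile normalization, where r was 0.41 (exact permutation p = 0.37, adjusted p = 0.90). The share of signal in the 100 brightest probe sets differed within animals too. Only control probe sets were left out of this share, so a bright neurofilament probe set can be part of it. The sign of the difference matched that of the difference in this share in 7 of 7 animals for Nefl at 1370058_at, 5 of 7 at 1370059_at, 4 of 7 for Nefm and 5 of 7 for Nefh. After quantile normalization the matches were 4 of 7 at both Nefl probe sets, 3 of 7 for Nefm and 1 of 7 for Nefh. The differences of Nefh were then only 0.01 to 0.04 in MM11, MM13, MM14 and MM17, so their signs carry little weight. The part of the share in the relation was not tested beyond this.

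**Figure D4:**
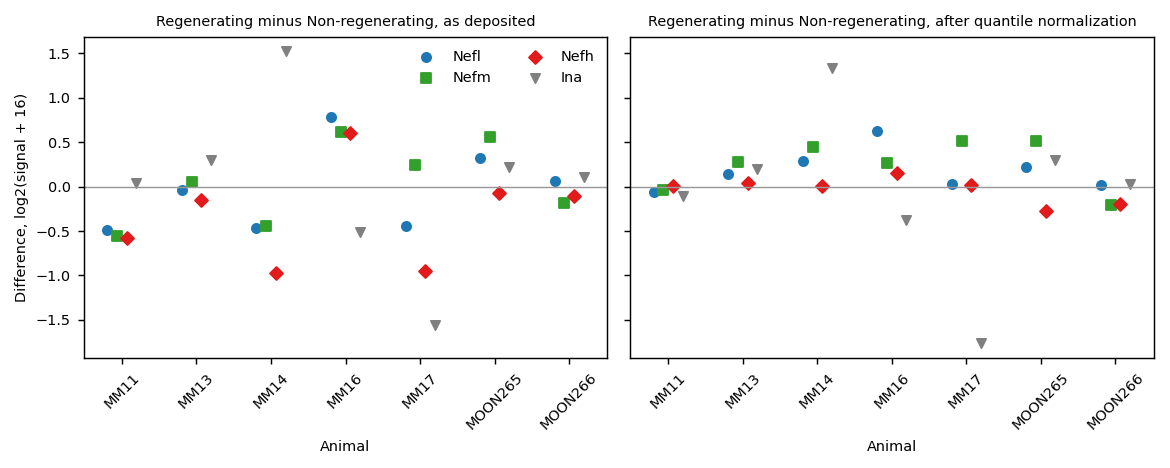
Regenerating minus Non-regenerating difference in log2(signal + 16) (y axis) of Nefl, Nefm, Nefh and Ina at their brightest probe sets in each of 7 animals (x axis), as deposited (left) and after quantile normalization (right). On the left Nefl spans -0.49 to 0.79 and Nefh -0.97 to 0.60, with both highest in MM16, and on the right Nefl spans -0.06 to 0.63 and Nefh -0.28 to 0.16.

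Across the 13 arrays of MM animals, with group means removed, the level of Nefl correlated with Nefm at r = 0.80 and with Nefh at r = 0.95. Nefm and Nefh correlated at r = 0.67. Without Non-regenerating MM17 and Traced MM15 these were 0.97, 0.95 and 0.97 over 11 arrays. Ina correlated with Nefl at -0.16, with Nefm at -0.58 and with Nefh at -0.09, and without those arrays at -0.64, -0.68 and -0.77. The arrays share animals, scaling and amplification, and these values are descriptions. They were not computed for Nefl at 1370059_at or after quantile normalization. On the same 13 arrays the share of signal in the 100 brightest probe sets correlated with Nefh at r = 0.94 and with Nefm at 0.38. Its r with Nefl was 0.82 at 1370058_at but -0.16 at 1370059_at. With Ina it was 0.16 at 1387226_at and -0.33 at 1371148_s_at. A bright probe set can be part of this share, since only the controls were left out.

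The genes with the most similar pattern were found by their correlation with the mean of the 4 scaled members over the same 13 arrays. This mean followed Nefl at 1370058_at (r = 0.97), Nefh (0.95) and Nefm (0.70) more closely than Ina (0.06). Klc1, a kinesin light chain of axonal transport, came first with r = 0.98. Tubb2a, a beta tubulin, had r = 0.96. Fbxo9, an F-box protein, had 0.95. Hoxd8, a homeobox gene, and Slc24a2, a sodium, potassium and calcium exchanger, both had 0.94. Without the 2 arrays that stood apart, r was 0.99 for Klc1, 0.97 for Tubb2a, 0.91 for Fbxo9 and 0.90 for both Hoxd8 and Slc24a2. After quantile normalization it was 0.81 for Klc1, 0.39 for Tubb2a, 0.71 for Fbxo9, 0.77 for Hoxd8 and 0.61 for Slc24a2. These genes also moved with the share of the 100 brightest probe sets, at r = 0.90 for Klc1, 0.94 for Tubb2a, 0.93 for Fbxo9, 0.78 for Hoxd8 and 0.95 for Slc24a2.

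Other genes of the neurofilament pathway were read from 5 lists, with 1 probe set per gene. Of 10 other intermediate filament genes 9 were tested. None passed the limma test in Regenerating against Non-regenerating neurons, where 5 were higher and 4 lower with a median of 0.12 and 1 had an unadjusted p under 0.05. That gene was Prph, which encodes peripherin, a partner of neurofilaments in neurons that project to the periphery, and which is also 1 of the motor neuron markers. Its mean signal was 340 ± 264 in Regenerating neurons, 155 ± 67.7 in Non-regenerating and 117 ± 30.9 in Traced neurons. The log2 difference of Prph was 0.90 (SE 0.21, adjusted p = 0.52) in Regenerating against Non-regenerating and 1.21 (SE 0.42, adjusted p = 0.11) against Traced neurons.

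The filament gene that passed was Gfap, the intermediate filament of astrocytes. It rose by 1.33 (SE 0.22, adjusted p = 0.026 by limma) in Regenerating against Traced neurons, the 1 of 9 filament genes called there, beside 0.215% of all probe sets. Its mean signal was 3116 ± 621 in Regenerating samples, 3210 ± 679 in Non-regenerating and 1227 ± 236 in Traced samples. In Non-regenerating against Traced neurons the difference of Gfap was 1.37 (SE 0.24, adjusted p = 0.072). Vim, a filament gene of glia and immature cells, differed by 0.70 in Non-regenerating and 0.92 in Regenerating against Traced neurons, without passing. Lmnb1, a nuclear lamin, differed by -1.16 and -1.42, and Synm, which encodes synemin, by -0.61 and -0.70, also without passing. The median of the 9 genes was -0.01 in both comparisons with Traced neurons, beside -0.12 over all probe sets.

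Of 14 kinases and phosphatases that act on neurofilament tails or their kinases 8 were tested, and 0 passed in any comparison. The medians were -0.05 in Regenerating against Non-regenerating, -0.21 in Non-regenerating against Traced and 0.12 in Regenerating against Traced neurons. Cdk5, a kinase of the tails of the medium and heavy chains, had the smallest p in Regenerating against Non-regenerating neurons, with a difference of 0.49 (SE 0.19, adjusted p = 0.68). Gsk3a, a glycogen synthase kinase gene, differed by -0.70 (SE 0.35, adjusted p = 0.47) in Non-regenerating and by -0.88 (SE 0.34, adjusted p = 0.13) in Regenerating against Traced neurons.

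All 14 genes of filament linkers and axonal transport were tested and 0 passed. Their medians were 0.10, 0.07 and 0.05 in the 3 comparisons, in the order used above. Plec, whose product plectin links filaments to each other and to membranes, differed by 0.32 (SE 0.19, adjusted p = 0.72) in Regenerating against Non-regenerating neurons. Myo5a, a myosin motor gene, differed by -0.56 (SE 0.35, adjusted p = 0.52) in Non-regenerating against Traced neurons. Dync1i1, a dynein intermediate chain of retrograde transport, differed by -0.54 (SE 0.23, adjusted p = 0.17) in Regenerating against Traced neurons. Dst, whose product dystonin links neurofilaments to other parts of the cytoskeleton, differed by 0.68 (SE 0.33, adjusted p = 0.22) there.

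Of 11 genes of chaperones and turnover 10 were tested, and 8 of these were higher in Regenerating than in Non-regenerating neurons, with a median of 0.36. Over all probe sets 49.8% were higher, with a median of -0.00. None of the 10 passed the limma test, and 3 had an unadjusted p under 0.05, beside 7.08% over all probe sets. Bag3, a co-chaperone of selective autophagy, differed by 0.63 (SE 0.15, adjusted p = 0.52). Its mean signal was 796 ± 298 in Regenerating and 498 ± 124 in Non-regenerating neurons. Hspb1, a small heat shock protein gene whose product associates with neurofilaments, differed by 0.58 (SE 0.25, adjusted p = 0.69). Stub1, a ubiquitin ligase that works with chaperones, differed by 0.42 (SE 0.16, adjusted p = 0.68). The medians of the list were -0.03 in Non-regenerating and 0.20 in Regenerating against Traced neurons, with 0 genes passing. Hspb1 had the smallest p in both, with differences of 0.39 (SE 0.27, adjusted p = 0.56) and 0.97 (SE 0.51, adjusted p = 0.27).

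Of 6 genes for proteins that bind neurofilament messages or are tied to their stability 4 were tested, and 0 passed. Their medians were -0.00, 0.24 and 0.34 in the same order of comparisons. Ywhah, a 14-3-3 protein gene, differed by -0.32 (SE 0.19, adjusted p = 0.72) in Regenerating against Non-regenerating neurons. Sod1, the superoxide dismutase gene, differed by 0.47 (SE 0.22, adjusted p = 0.20) in Regenerating against Traced neurons. Arhgef28, whose product binds the Nefl message, differed by 0.51 (SE 0.30, adjusted p = 0.50) in Non-regenerating against Traced neurons.

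**Figure D5:**
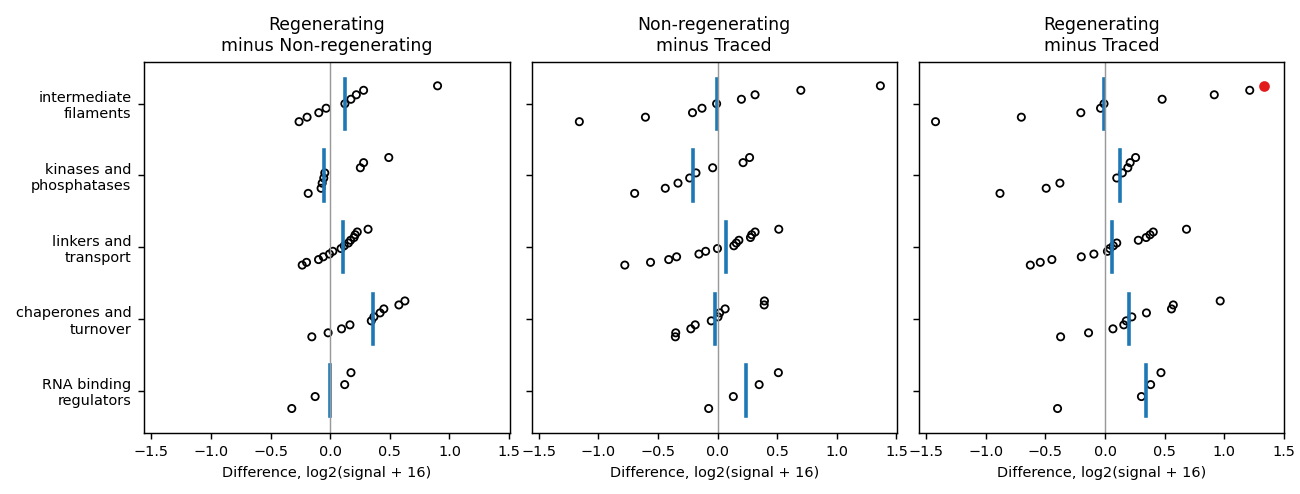
Difference in log2(signal + 16) (x axis) of each tested gene of the 5 pathway lists in the 3 comparisons, as the first group named minus the second. Open points did not pass, the filled point is Gfap at 1.33 in Regenerating minus Traced neurons, and vertical bars are the medians of the lists, the highest being 0.36 for chaperones and turnover in Regenerating minus Non-regenerating neurons.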

How the data were processed

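Each array came as deposited linear signal intensities, 1 per probe set, which the authors made with GCOS, per the submitters' processing notes. Its version is not given in the sources used here. Per the labels, RNA was amplified in repeated rounds, which shortens messages towards the 3 prime end. The mean signal without the lowest and highest 2% was 200.04 to 200.08 on every array, and no further scaling was applied.

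Values were tested as log2(signal + 16), where 16 is the 25th percentile of the table. After removal of 57 control probe sets and of the dim ones, below the 40th percentile of the mean, 18625 remained and were tested with limma 3.58.1 in R 4.3.3 (lmFit, eBayes with trend) and Benjamini-Hochberg adjustment over all of them. Regenerating and Non-regenerating arrays were compared with the animal as a block. This pairing came from the labels, and deviations from group means correlated within animals at r = 0.34 to 0.71. Probe sets with 1 symbol numbered 20832. Correlations used Python 3.11.15 and scipy 1.17.1.

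All members were named, and per list and comparison 1 to 6 genes with the smallest p. The members and lists were chosen with earlier results of these data known. Genes named as similar were the 5 highest r. The number of arrays limits the precision. Each rat gave 1 array per group, so the spread behind the p-values holds differences between rats together with those of capture, amplification and array. In the paired comparison it is the spread of the differences within rats. Other settings tried were the normalization, offset, filter, array weights, block, Gapdh ratio, name prefix, 1 fit over all arrays, the Nefl or Ina probe set and arrays left out. The settings for correlations and similar genes were chosen after seeing the data.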

Additional observations from a re-analysis of the deposited data

Results flagged for a closer look

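Of 12 sets of 7 values checked, 1 held a value far from the others, where by this criterion chance alone marks about 1 set in 20. It was the Nefl signal of 1629 at 1370058_at in Non-regenerating MM16, whose gap to the next value was 0.671 of the range of its group in log2(signal + 16). The same array also gave the lowest Non-regenerating values of Nefm, 2398, and Nefh, 2718, and had the smallest share of signal in its 100 brightest probe sets, 3.86%. For Nefl at 1370059_at it gave 2119, above the 1821 of Non-regenerating MM17. Without MM16 the difference of Regenerating minus Non-regenerating neurons was -0.18 for Nefl at 1370058_at, -0.04 at 1370059_at and -0.47 for Nefh. None of these passed the limma test, though Nefh then had an unadjusted p under 0.05.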

How the results depend on the processing

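Over 372 values of neurofilament probe sets under other settings, 0 had a limma adjusted p under 0.05, the lowest being 0.090 for Nefh in Non-regenerating against Traced neurons with array weights (0.53), and 63 had the other sign. The count of neurofilament probe sets called was 0 in all 19, 22 and 22 settings run for the 3 comparisons. Over all probe sets it was 0 to 3 in Regenerating against Non-regenerating, 2 to 2440 in Non-regenerating against Traced and 1 to 3131 in Regenerating against Traced neurons, with the highest counts under array weights. Leaving out the block for paired animals cannot change the estimates, and Nefh at -0.32 then had a limma adjusted p of 0.9999. Nefh in Regenerating against Non-regenerating neurons stayed below 0 in 19 of 19 settings, from -0.47 without MM16 to -0.03 with quantile normalization. Some of these, as the block, the filter and 1 fit over all arrays, left the estimate unchanged. With quantile normalization Nefl at 1370058_at was 0.18 (limma adjusted p = 0.59) and Nefm was 0.25 (limma adjusted p = 0.58). Both had an unadjusted p under 0.05. The other Nefl probe set, 1370059_at, gave 0.13 under this setting (limma unadjusted p = 0.23, adjusted p = 0.72). The share of all probe sets with an unadjusted p under 0.05 is not given for this setting. Ina 1387226_at in Non-regenerating against Traced neurons stayed below 0 in 21 of 21 settings. In 2 of these, without Non-regenerating MM17 and with array weights, its unadjusted limma p was under 0.05. It was -0.13 with the Gapdh ratio as a covariate, where it was 0.02 in Regenerating against Traced neurons. In the latter comparison its unadjusted limma p was under 0.05 in 1 of 21 settings, without Regenerating MM14. Centring arrays on their median gave 0.19 to 0.35 for Nefl and Nefm against Traced neurons, beside medians of 0.24 and 0.26 over all probe sets.

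The r of within-animal differences, by exact permutation, was 0.41 for Nefl and Nefh (adjusted p = 0.90) and 0.21 for Nefl and Ina after quantile normalization, and 0.85 for Nefl and Nefm (adjusted p = 0.020) with arrays centred on the median. With Nefl at 1370059_at it was 0.26 for Nefl and Nefh (adjusted p = 0.70). With Ina at 1371148_s_at it was 0.083 for Nefm and Ina. In the 5 MM animals alone it was 0.96 for Nefl and Nefh (adjusted p = 0.25). Leaving out 1 animal at a time gave 0.89 to 0.97 for Nefl and Nefh, 0.66 to 0.93 for Nefl and Nefm, 0.38 to 0.84 for Nefm and Nefh, -0.69 to 0.23 for Nefl and Ina, -0.63 to -0.27 for Nefm and Ina, and -0.86 to 0.42 for Nefh and Ina. The cause of these shifts was not tested.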
